A study of Mus musculus with 12 samples.

Results

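The 36 genes described here are transcripts by which brain endothelial cells are recognised, together with genes of their cell junctions. They were taken as a list of mouse symbols that was chosen with earlier results of these data known. Counts set beside shares of all genes therefore describe the list and do not test it. All 36 genes were found among the 53379 genes of the count table by their Ensembl identifiers. They comprise 8 junction and adhesion genes, 8 transcription factors, 12 receptors and surface glycoproteins, 6 intracellular regulators and 2 secreted proteins. RNA was sequenced from cortex of wild-type (WT) C57BL/6J mice 6 months after repeated head impacts, which the submitters abbreviate rlmTBI, or after a sham procedure. The mice ate either a high-fat diet with fish oil, given in cycles, or a purified diet without interruption, and the question concerns diet and the brain's vasculature after injury. The 4 groups are fish oil injured, fish oil sham, purified injured and purified sham, with 3 libraries each, numbered 2 to 4. All 4 groups share the WT genotype and strain. Since one diet is richer in fat, supplemented with fish oil and given in cycles, fat, fish oil and feeding schedule cannot be told apart. The age of the mice is not given in the sources used here. No label links a library to its own animal, so p-values measure the spread between libraries. In every group replicates 3 and 4 share the first number of their library name, and the labels do not say what that number stands for.

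Endothelial cells line every vessel of the brain and form the blood-brain barrier. Neighbouring cells are sealed by tight junctions, built from claudins, occludin and angulins on a zonula occludens scaffold, and by adherens junctions around VE-cadherin. The endothelial state is maintained by transcription factors of the ETS family, among them Erg and Fli1, and of the SOXF group, Sox7, Sox17 and Sox18. The surface is covered by sialomucins and adhesion receptors that face the blood.

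The libraries held 46362158 to 70754854 counts in all and 23207 to 24579 genes with a count above 0. Every one of the 36 genes had counts in every library, with 12 as the lowest count of any gene in any library and 9755 as the highest. All 36 passed the filter on low counts that left 19252 genes. Neuronal markers summed to 7146 to 10264 CPM in fish oil injured libraries, 6775 to 8700 CPM in fish oil sham libraries, 6764 to 8252 CPM in purified injured libraries and 7496 to 8360 CPM in purified sham libraries, where CPM is the read count normalised to library size with TMM factors. None of the 7 neuronal markers stood at 0 in any library. Several libraries stood apart by transcripts of other brain regions. Choroid plexus markers summed to 2749 and 2611 CPM in fish oil injured replicates 3 and 4 and to 500 CPM in purified sham replicate 3. Striatal markers summed to 1541 CPM in fish oil sham replicate 2 and 616 CPM in purified sham replicate 4, and olfactory bulb markers to 763 CPM in purified injured replicate 3. In bulk tissue the endothelial origin of the 36 transcripts cannot be checked cell by cell, and fewer endothelial cells and less of these RNAs per cell cannot be told apart.

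Promoter sequences are shown for 4 of the genes because the list holds ETS and SOXF factors, whose DNA-binding domains recognise known short letter strings. RefSeq (GRCm38.p6) gave 27 windows of 300 bases, each running from 250 bases before to 50 bases after a start site, for 19 of the 36 genes. Adgrf5 and Ly6c1 are shown as the surface genes with a window that had the smallest p for diet in sham mice, Emcn as a sialomucin with non-overlapping diets and Cldn5 as the junction claudin. Capitals mark ETS letters (AGGAAG or CGGAAG) or SOX letters (ACAATG or ACAAAG), on either strand. The Adgrf5 window is chr17:43360181-43360480 on the plus strand, Emcn chr3:137340828-137341127 on the plus strand, Ly6c1 chr15:75048614-75048913 on the minus strand and Cldn5 chr16:18776597-18776896 on the plus strand.
Adgrf5: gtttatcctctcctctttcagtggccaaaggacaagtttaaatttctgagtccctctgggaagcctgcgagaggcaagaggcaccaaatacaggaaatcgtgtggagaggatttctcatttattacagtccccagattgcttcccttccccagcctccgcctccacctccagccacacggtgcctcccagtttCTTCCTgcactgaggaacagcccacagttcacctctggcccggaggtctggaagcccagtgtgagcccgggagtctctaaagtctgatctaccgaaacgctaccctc
Emcn: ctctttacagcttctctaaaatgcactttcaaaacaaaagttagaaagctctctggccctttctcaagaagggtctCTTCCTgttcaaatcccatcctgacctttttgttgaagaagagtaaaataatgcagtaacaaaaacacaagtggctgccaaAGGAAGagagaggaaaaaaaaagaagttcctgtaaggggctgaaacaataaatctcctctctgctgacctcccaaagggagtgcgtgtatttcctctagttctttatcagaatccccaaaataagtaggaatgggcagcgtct
Ly6c1: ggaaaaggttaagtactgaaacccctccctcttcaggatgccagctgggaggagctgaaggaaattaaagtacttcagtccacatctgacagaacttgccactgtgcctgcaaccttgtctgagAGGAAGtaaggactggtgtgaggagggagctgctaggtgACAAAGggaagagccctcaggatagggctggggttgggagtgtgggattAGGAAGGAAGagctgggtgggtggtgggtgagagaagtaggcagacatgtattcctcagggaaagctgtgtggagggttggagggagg
Cldn5: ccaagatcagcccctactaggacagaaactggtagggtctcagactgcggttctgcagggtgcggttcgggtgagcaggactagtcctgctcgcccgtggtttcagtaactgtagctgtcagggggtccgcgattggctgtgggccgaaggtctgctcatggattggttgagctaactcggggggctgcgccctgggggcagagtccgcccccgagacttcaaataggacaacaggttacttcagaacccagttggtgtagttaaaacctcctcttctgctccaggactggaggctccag
In Adgrf5 the ETS letters lay 57 bases before the start site, on the opposite strand. Emcn held them 174 and 93 bases before the start. The Ly6c1 window held ETS letters 126, 38 and 34 bases before the start, the last pair overlapping, and SOX letters 87 bases before it. No searched letters were in the Cldn5 window, nor in the other windows of Adgrf5 and Ly6c1. Over the list, 17 of 27 windows (63%) held ETS letters, in 16 of the 19 genes, against 46.5% of all 32851 windows of this length. SOX letters were in 4 of 27 windows (14.8%), against 28.6% of all windows. These are letter matches in these windows and were not tested as binding sites.

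The genes spanned a wide range of abundance. Per kilobase of exon, and as a mean over the 12 libraries, Itm2a, a membrane protein gene, had 18.8 CPM per kilobase, and Tjp1, which encodes the zonula occludens scaffold and is made by many cell types, had 17.4. The sialomucin gene Cd34 had 11.3 CPM per kilobase, and the lymphocyte antigen 6 genes Ly6a and Ly6c1 had 10.5 and 8.34. Cldn5, at 2.76 CPM per kilobase, Pecam1, at 2.12, Ocln, at 1.93, and Cdh5, at 1.70, lay in the middle of the order. The transcription factor genes Sox17, Foxq1 and Mecom were the lowest, at 0.194, 0.184 and 0.160 CPM per kilobase.

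By group mean, the purified sham libraries were the highest of the 4 groups for 30 of the 36 genes and the purified injured libraries for the other 6. The lowest mean was in fish oil injured libraries for 18 genes, in fish oil sham libraries for 13 and in purified injured libraries for 5. The mean centred log2 CPM over the 36 genes was -0.29, -0.36 and -0.13 in fish oil injured libraries and -0.40, -0.06 and -0.22 in fish oil sham libraries. It was 0.17, 0.08 and -0.03 in purified injured libraries and 0.23, 0.42 and 0.59 in purified sham libraries. On this score all 6 fish oil libraries lay below all 6 purified libraries, by a narrow margin, with the nearest at -0.06 and -0.03. The summed CPM of the 36 genes overlapped between the diets, at 530 in fish oil sham replicate 3 and 499 in purified injured replicate 4. Single libraries weighed on the extremes, since purified sham replicate 4 was the highest of the 12 libraries for 18 genes and fish oil injured replicate 3 the lowest for 12.

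**Figure D1:**
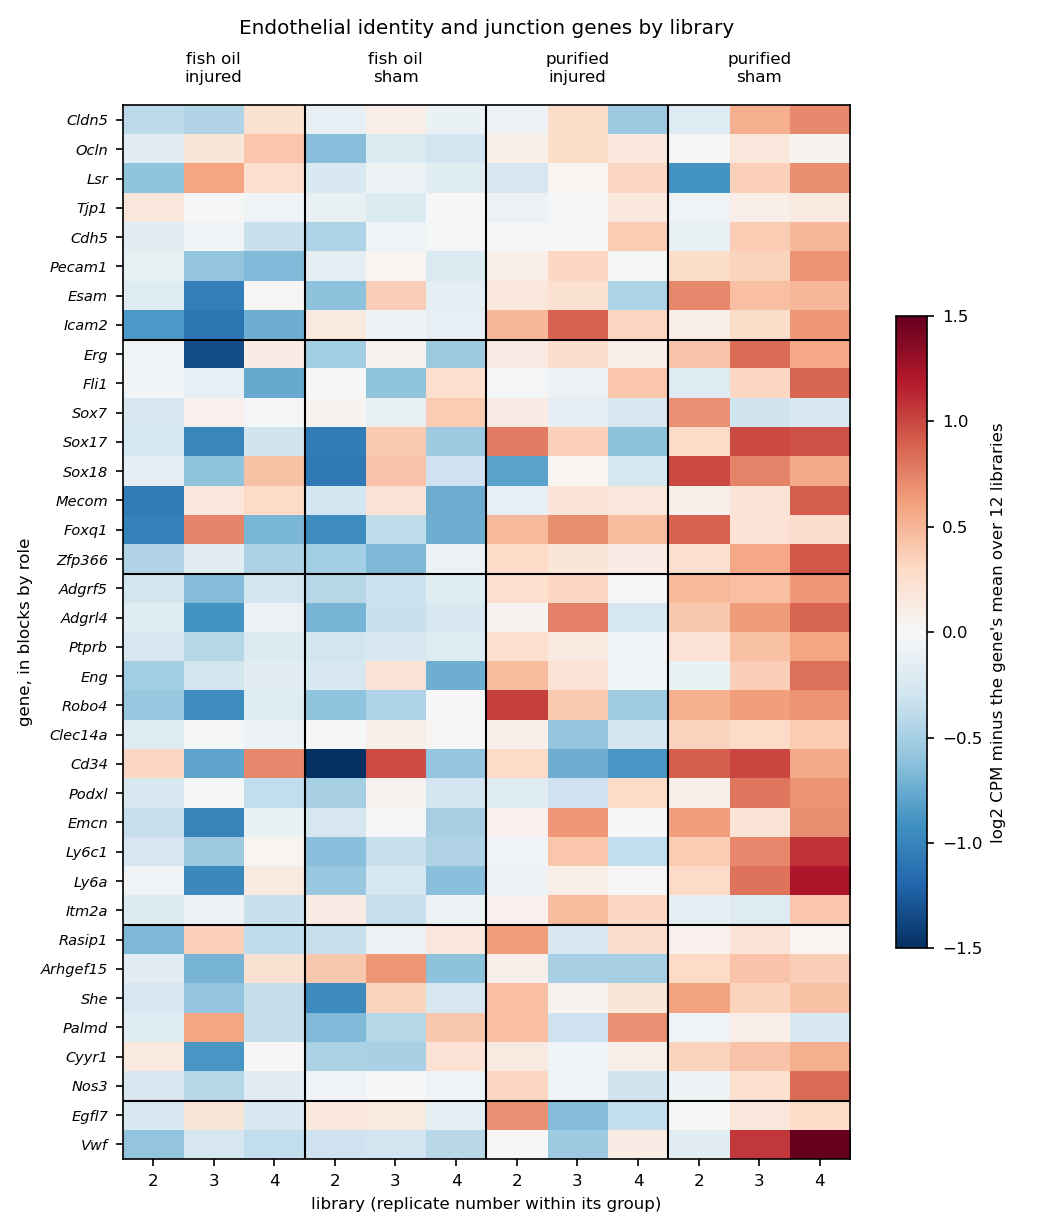
Log2 CPM of the 36 genes (rows, grouped by role) in the 12 libraries (columns, by group), each row centred on its own mean, with the colour scale running from -1.5 to 1.5. The purified sham columns are mostly above the row means and the fish oil columns mostly below, and purified sham replicate 4 holds the highest value of 18 genes.

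Fish oil sham libraries had lower values than purified sham libraries for the whole list, but no gene passed the test. All 36 log2 fold changes were below 0, while 48.9% of the 19252 genes tested were below 0. The median was -0.64, with a range of -1.41 to -0.01, against 0.01 for all genes. At an unadjusted p under 0.05 there were 19 genes of the list, all lower, where 1.95% of all genes were that low. For 19 of the 36 every fish oil sham library lay below every purified sham library, as 7.45% of all genes did. With edgeR's quasi-likelihood test and Benjamini-Hochberg adjustment over 19252 genes, 0 genes (0%) passed 0.05, and the lowest adjusted p on the list was 0.686. DESeq2 called 17 genes in this comparison, 5 of them on the list, namely Adgrf5, Ptprb, Ly6c1, Ly6a and Zfp366.

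Adgrf5 encodes an adhesion G protein-coupled receptor of endothelium (ENSMUSG00000056492.6, chr17:43360451-43459557, plus strand, GENCODE M21 on GRCm38). It stood at 23.0, 24.6 and 27.3 CPM in fish oil sham libraries, against 43.2, 42.1 and 48.4 CPM in purified sham libraries. The groups lay well apart, at 24.97 ± 2.15 CPM on fish oil and 44.6 ± 3.38 CPM on the purified diet (SD, n = 3 each). The log2 fold change was -0.84 ± 0.13 (SE, edgeR adjusted p = 0.686), and its unadjusted p ranked 1 of 19252. Ptprb encodes the endothelial tyrosine phosphatase VE-PTP, which acts on VE-cadherin and on the angiopoietin receptor (ENSMUSG00000020154.10, chr10:116275523-116389535, plus strand). Its values were 25.4, 26.0 and 27.0 CPM in fish oil sham libraries and 35.6, 41.8 and 46.2 CPM in purified sham libraries, again without overlap. The log2 fold change was -0.66 ± 0.12 (edgeR adjusted p = 0.686).

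Ly6c1 and Ly6a encode small lipid-anchored surface proteins, of which Ly6c1 marks brain endothelium of mice and Ly6a is also known from blood stem cells. Ly6c1 had 8.44, 10.3 and 9.57 CPM in fish oil sham libraries, against 17.0, 21.5 and 27.7 CPM in purified sham libraries (log2 fold change -1.23 ± 0.23, edgeR adjusted p = 0.704). Ly6a had 7.89, 9.72 and 7.56 CPM in fish oil sham libraries, against 14.2, 20.6 and 27.0 CPM in purified sham libraries (log2 fold change -1.29 ± 0.28, edgeR adjusted p = 0.934). In both genes the diets did not overlap, and purified sham replicate 4 was the highest library. They belong to a family of near-identical genes, and the sources used here do not give how reads that map to several places were counted, so their values are uncertain. Ly6c2, the closest relative of Ly6c1, was between 0 and 0.0713 CPM in all 12 libraries.

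Among the other surface genes, Emcn, which encodes the sialomucin endomucin, had 2.93, 3.42 and 2.49 CPM in fish oil sham libraries and 5.42, 4.00 and 5.65 CPM in purified sham libraries. Adgrl4, an adhesion receptor gene of sprouting vessels, had 8.73, 11.3 and 12.03 CPM in fish oil sham libraries and 18.8, 22.0 and 26.0 CPM in purified sham libraries. Podxl, which encodes podocalyxin, a sialomucin of the vessel lumen, had 21.4, 31.2 and 24.8 CPM in fish oil sham libraries and 31.9, 52.5 and 48.3 CPM in purified sham libraries. In none of these 3 genes did the sham groups overlap. Cd34 overlapped widely, at 20.2, 137 and 46.8 CPM in fish oil sham libraries and 130, 140 and 103 CPM in purified sham libraries. Its highest library was 6.92 times its lowest over the 12. By role, 9 of the 12 receptors and surface glycoproteins were lower at an unadjusted p under 0.05, and their median log2 fold change was -0.81. The same held for 4 of 8 transcription factors (median -0.95), 2 of 6 intracellular regulators (-0.29) and 1 of 2 secreted proteins (-0.75).

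**Figure D2:**
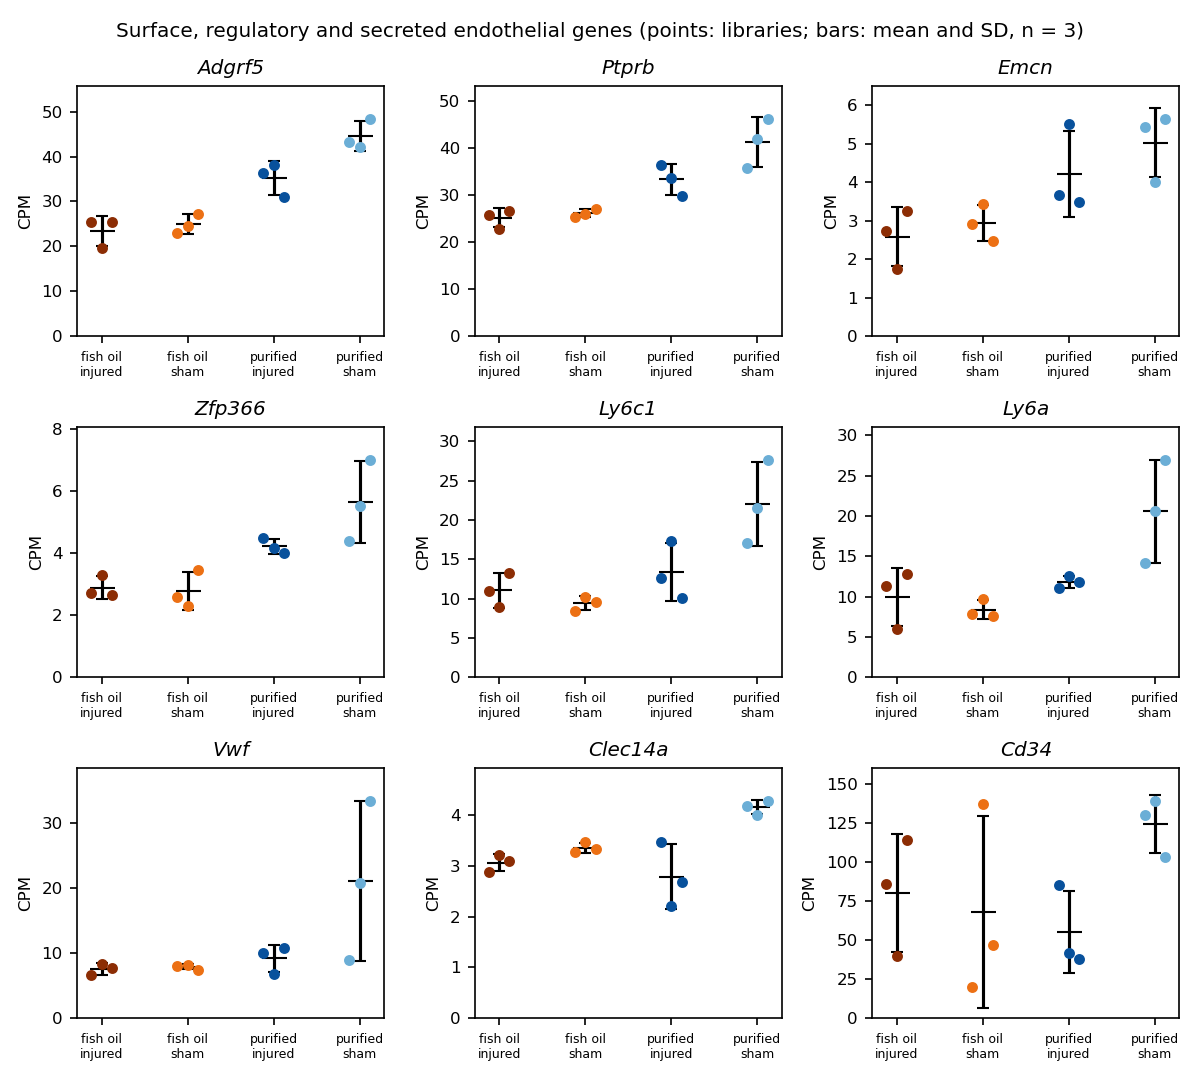
CPM of 9 genes of surface, secreted and nuclear proteins in each library (points) with group mean and SD (bars, n = 3), for fish oil injured, fish oil sham, purified injured and purified sham libraries from left to right. Adgrf5, Ptprb, Emcn and Zfp366 had all 6 fish oil libraries below all 6 purified ones, and Cd34 scatters within groups.

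Several transcription factors also had lower values in fish oil sham libraries. Erg, the ETS factor that sustains endothelial identity, had 2.74, 4.06 and 2.68 CPM in fish oil sham libraries and 5.26, 7.02 and 5.88 CPM in purified sham libraries, without overlap. Zfp366, a zinc finger protein gene known mainly from dendritic cells, had 2.59, 2.31 and 3.47 CPM in fish oil sham libraries and 4.40, 5.53 and 7.02 CPM in purified sham libraries, again without overlap. Fli1, the other ETS factor, did overlap, with 3.38, 2.23 and 4.04 CPM in fish oil sham libraries and 2.98, 4.19 and 6.20 CPM in purified sham libraries. Of the SOXF genes, Sox18 had 0.228, 0.648 and 0.387 CPM in fish oil sham libraries and 0.959, 0.809 and 0.713 CPM in purified sham libraries. Sox17 had 0.399, 1.08 and 0.565 CPM in fish oil sham libraries and 1.01, 1.64 and 1.60 CPM in purified sham libraries, so that only Sox18 was without overlap. Sox7 showed no such separation, at 0.970, 0.873 and 1.23 CPM in fish oil sham libraries and 1.52, 0.766 and 0.802 CPM in purified sham libraries. Foxq1, a forkhead factor gene enriched in brain endothelium, was at 0.418, 0.620 and 0.484 CPM in fish oil sham libraries and 1.49, 0.936 and 0.962 CPM in purified sham libraries. In GENCODE M21 its exons share 3200 bases with A530084C06Rik on the opposite strand, and with the strand setting of the counting not given, reads of both genes may be mixed. Sox17 shares 804 bases with Gm37587 in the same way.

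The junction genes had smaller fold changes between the sham groups, by their median, than the surface genes, a difference that was not tested. All 8 lay below 0, at a median of -0.44 on the log2 scale. Pecam1, Ocln and Cdh5, 3 of the 8, had an unadjusted p under 0.05. Pecam1, an adhesion molecule of the endothelial cell border, had 11.7, 13.1 and 10.99 CPM in fish oil sham libraries and 15.5, 16.2 and 20.5 CPM in purified sham libraries (log2 fold change -0.54 ± 0.17). Ocln, the occludin gene, had 5.13, 6.92 and 6.55 CPM in fish oil sham libraries and 8.05, 9.003 and 8.23 CPM in purified sham libraries (-0.44 ± 0.18). Neither gene overlapped between the diets. Esam, an adhesion molecule gene of endothelial tight junctions, was also without overlap, with 5.13, 10.2 and 7.07 CPM in fish oil sham libraries and 12.9, 10.7 and 11.1 CPM in purified sham libraries (-0.63 ± 0.30). The central barrier genes overlapped. Cldn5, which encodes the main claudin of the blood-brain barrier, had 3.48, 4.06 and 3.52 CPM in fish oil sham libraries and 3.31, 5.53 and 6.24 CPM in purified sham libraries (-0.45 ± 0.29). Cdh5, the VE-cadherin gene, had 5.10, 6.71 and 6.85 CPM in fish oil sham libraries and 6.50, 9.15 and 9.91 CPM in purified sham libraries (-0.45 ± 0.20). Purified sham replicate 2 was the low library of its group in both genes. Icam2, an adhesion molecule gene of endothelial junctions that binds leukocyte integrins, was at -0.38 ± 0.28. Lsr, a component of tricellular tight junctions, had 1.79, 1.99 and 1.84 CPM in fish oil sham libraries and 1.12, 2.68 and 3.40 CPM in purified sham libraries (-0.36 ± 0.39). The scaffold gene Tjp1 had 125, 117 and 136 CPM in fish oil sham libraries and 131, 145 and 148 CPM in purified sham libraries (-0.17 ± 0.11), and its values varied least of the 36 genes, with a ratio of 1.30 between the highest and the lowest of the 12 libraries. All of these fold changes had edgeR adjusted p-values above 0.05.

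**Figure D3:**
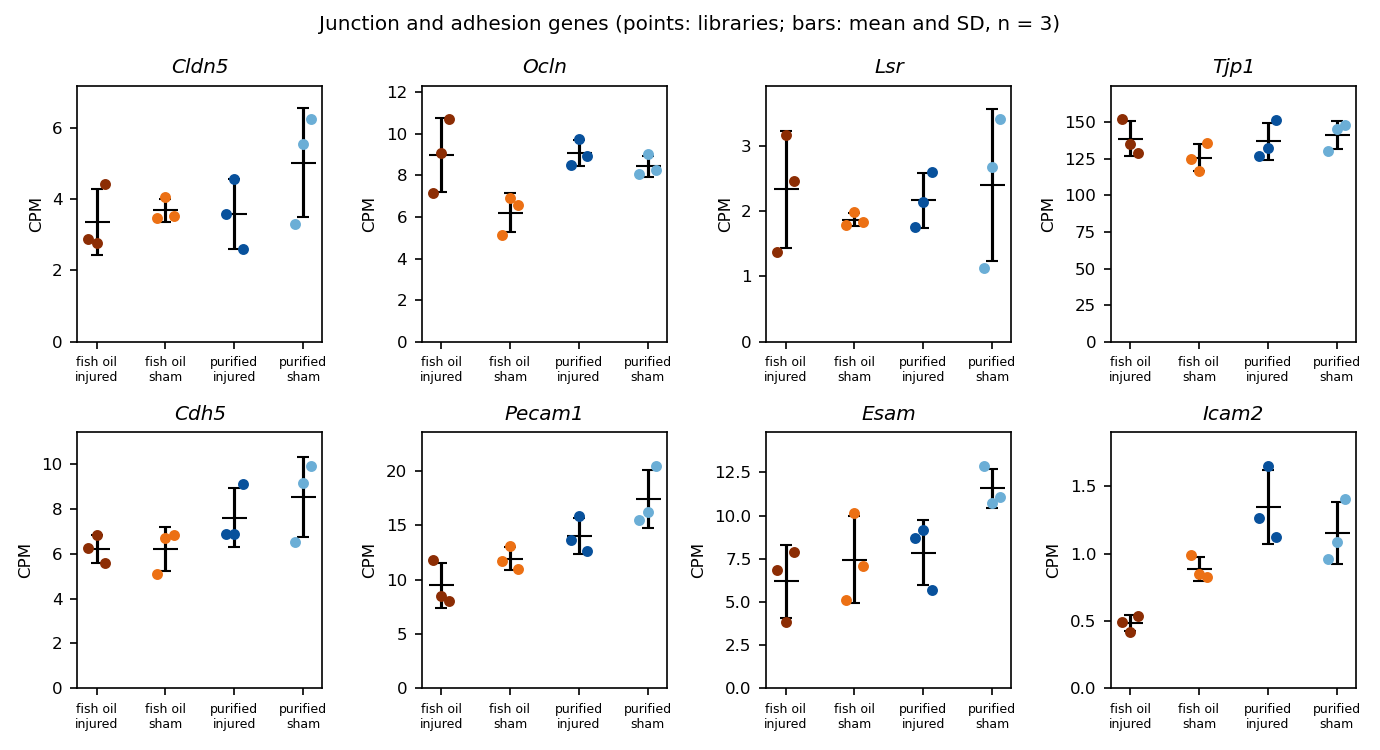
CPM of the 8 junction and adhesion genes in each library (points) with group mean and SD (bars, n = 3), for fish oil injured, fish oil sham, purified injured and purified sham libraries from left to right. Icam2 is lowest in the fish oil injured libraries, at 0.421 to 0.539 CPM, Ocln is lowest in the fish oil sham libraries, and Tjp1 lies between 117 and 152 CPM throughout.

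The remaining genes were mixed. Robo4, a guidance receptor gene that is largely endothelial, had 1.41, 1.55 and 2.15 CPM in fish oil sham libraries and 3.09, 3.30 and 3.40 CPM in purified sham libraries, without overlap. Cyyr1, a membrane protein gene, was also without overlap, at 1.75, 1.75 and 2.84 CPM in fish oil sham libraries and 3.07, 3.28 and 3.55 CPM in purified sham libraries. She, an adaptor protein gene, had 1.25, 3.06 and 2.05 CPM in fish oil sham libraries and 3.69, 3.06 and 3.28 CPM in purified sham libraries, so that its groups were separate by a margin smaller than the rounding. Nos3, the endothelial nitric oxide synthase gene, overlapped, at 2.74, 2.85 and 2.74 CPM in fish oil sham libraries and 2.69, 3.34 and 5.08 CPM in purified sham libraries. So did Eng, the gene of the TGF-beta co-receptor endoglin, at 5.17, 7.07 and 3.68 CPM in fish oil sham libraries and 5.67, 7.90 and 10.8 CPM in purified sham libraries. Arhgef15 had 22.1, 26.5 and 10.9 CPM in fish oil sham libraries and 20.5, 22.4 and 21.6 CPM in purified sham libraries, with fish oil sham replicate 4 far below the rest. Over all 12 libraries Egfl7, a secreted vessel-associated factor gene that hosts a microRNA, ranged from 3.87 to 9.79 CPM, Palmd from 10.8 to 27.4 CPM, Rasip1, which encodes a regulator of vessel lumen formation, from 1.14 to 2.82 CPM and Mecom from 0.909 to 3.53 CPM. Egfl7, Nos3, Rasip1, Palmd, Mecom, Lsr, Eng, Cd34 and Cyyr1 share exon bases with other annotated genes, from which their reads may not be separable.

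Libraries that stood apart entered this comparison. The settings below were refitted, and shares of all genes below 0 or at an unadjusted p under 0.05 were not taken for them. The median over all genes in these settings lay between -0.001 and 0.015. Without purified sham replicate 4, 35 of 36 genes were below 0, the median was -0.50 and 10 genes had an unadjusted p under 0.05. Without fish oil sham replicate 2 that count was 11. With both libraries of other regions left out (fish oil sham replicate 2 and purified injured replicate 3), 34 genes were below 0 with a median of -0.51 and 10 at an unadjusted p under 0.05. With purified sham replicate 4 left out as well, these values were 34, -0.39 and 8. Without overlap were then 20 of the 36 genes, beside 18.4% of all genes in groups of 2 against 2 libraries. With the 3 libraries richest in choroid plexus transcripts left out, 36 genes were below 0, with a median of -0.64 and 12 at an unadjusted p under 0.05.

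In injured mice the diets differed in the same direction for most of the list. Fish oil injured libraries had 29 of 36 genes below 0 relative to purified injured libraries, where 49.2% of all genes were below 0. The median was -0.29, with a range of -1.47 to 0.54, against 0.01 for all genes. At an unadjusted p under 0.05 there were 8 genes of the list, all lower, where 6.83% of all genes were that low, and 10 genes had no overlap between the groups with fish oil lower, as 5.98% of all genes did. The test called 0 genes (0%), and the lowest edgeR adjusted p on the list was 0.362. DESeq2 called 186 genes, 2 of them on the list, Icam2 and Adgrf5.

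Icam2 was the listed gene with the largest fold change in injured mice (ENSMUSG00000001029.15, chr11:106377656-106388075, minus strand). It stood at 0.491, 0.421 and 0.539 CPM in fish oil injured libraries, against 1.26, 1.65 and 1.12 CPM in purified injured libraries. The groups were far apart, with a log2 fold change of -1.47 ± 0.29 (edgeR adjusted p = 0.362). The values rest on few counts, 27, 24 and 28 in fish oil injured libraries and 64, 81 and 56 in purified injured libraries. Adgrf5 had 25.5, 19.6 and 25.4 CPM in fish oil injured libraries and 36.3, 38.2 and 31.0 CPM in purified injured libraries (-0.58 ± 0.13, edgeR adjusted p = 0.362). Ptprb had 25.8, 22.8 and 26.7 CPM in fish oil injured libraries and 36.4, 33.6 and 29.8 CPM in purified injured libraries (-0.41 ± 0.12, edgeR adjusted p = 0.371). Pecam1 had 11.8, 8.51 and 8.06 CPM in fish oil injured libraries and 13.6, 15.8 and 12.6 CPM in purified injured libraries (-0.57 ± 0.18, edgeR adjusted p = 0.395). None of these 4 genes overlapped between the diets. Cdh5 was also separate, by a narrow margin, with 6.25, 6.81 and 5.58 CPM in fish oil injured libraries and 6.85, 6.87 and 9.10 CPM in purified injured libraries. The other 5 junction genes overlapped, among them Cldn5 with 2.87, 2.77 and 4.43 CPM in fish oil injured libraries and 3.58, 4.56 and 2.60 CPM in purified injured libraries, and Ocln with 7.16, 9.09 and 10.7 CPM in fish oil injured libraries and 8.49, 9.72 and 8.94 CPM in purified injured libraries. Itm2a and Eng, like Cdh5 and Icam2, were without overlap in injured mice and overlapped in sham mice, a contrast that was not tested. Itm2a had 28.0, 30.4 and 25.4 CPM in fish oil injured libraries and 33.6, 44.5 and 39.99 CPM in purified injured libraries. Eng had 4.25, 5.04 and 5.41 CPM in fish oil injured libraries and 8.43, 7.01 and 5.84 CPM in purified injured libraries. Choroid plexus markers were higher in these injured libraries, with all 11 at an unadjusted p under 0.05 and a median log2 fold change of 4.10. Leaving out the 3 libraries richest in choroid plexus transcripts leaves 1 fish oil injured library, replicate 2, assumed to vary like the other groups. In that setting 30 of the 36 genes were below 0 with a median of -0.35. Choroid plexus markers still summed to 249 CPM in that library, against 20.9 to 51.6 CPM in purified injured libraries. With limma-voom and a correlation between libraries that share a first number, 12 listed genes were lower at an unadjusted p under 0.05. The correlation in that setting was estimated at -0.256, and 12 was the highest count over the 25 alternatives, with 3 the lowest. Leaving out 1 library in turn gave 6 to 10 such genes with edgeR. Shares of all genes were not taken for these settings.

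The diet comparisons in injured and in sham mice share no library. The diets did not overlap, with fish oil lower, in both injury states for Adgrf5, Ptprb, Pecam1, Emcn, Zfp366 and She, as for 0.919% of all genes. These are 6 of the 10 such genes in injured mice and 6 of the 19 in sham mice. The log2 fold change was below 0 in both states for 29 of the 36 genes, where 26.4% of all genes were. It was nearer to 0 in injured than in sham mice for 28 of the 36, and for 43.4% of all genes.

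Averaged over injured and sham mice, 34 of the 36 genes were below 0 for fish oil against purified diet, where 47.5% of all genes were. The median was -0.46, with a range of -0.95 to 0.00. An unadjusted p under 0.05 was reached by 20 genes, all lower, against 6.1% of all genes. In Adgrf5, Ptprb, Emcn and Zfp366 all 6 fish oil libraries lay below all 6 purified libraries, a separation in this direction that 0.301% of all genes had. Adgrf5 had the smallest p of all 19252 genes, at a log2 fold change of -0.71 ± 0.09 and an edgeR adjusted p of 0.130. Ptprb followed at -0.53 ± 0.08 (edgeR adjusted p = 0.272), Zfp366 at -0.78 ± 0.16 and Ly6c1 at -0.75 ± 0.16 (both edgeR adjusted p = 0.451). The test again called 0 genes (0%). DESeq2 called 99 genes, 10 of them on the list, which are Adgrf5, Ptprb, Zfp366, Ly6c1, Ly6a, Emcn, Robo4, Adgrl4, Icam2 and Pecam1. Adgrf5 alone of the list passed 0.05 with edgeR when purified injured replicate 4 was left out (adjusted p = 0.0267) or when no filter on low counts was applied (adjusted p = 0.0144). By role, 10 of 12 receptors and surface glycoproteins, 4 of 8 junction genes, 4 of 8 transcription factors, 1 of 6 intracellular regulators and 1 of 2 secreted proteins were lower at an unadjusted p under 0.05.

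**Figure D4:**
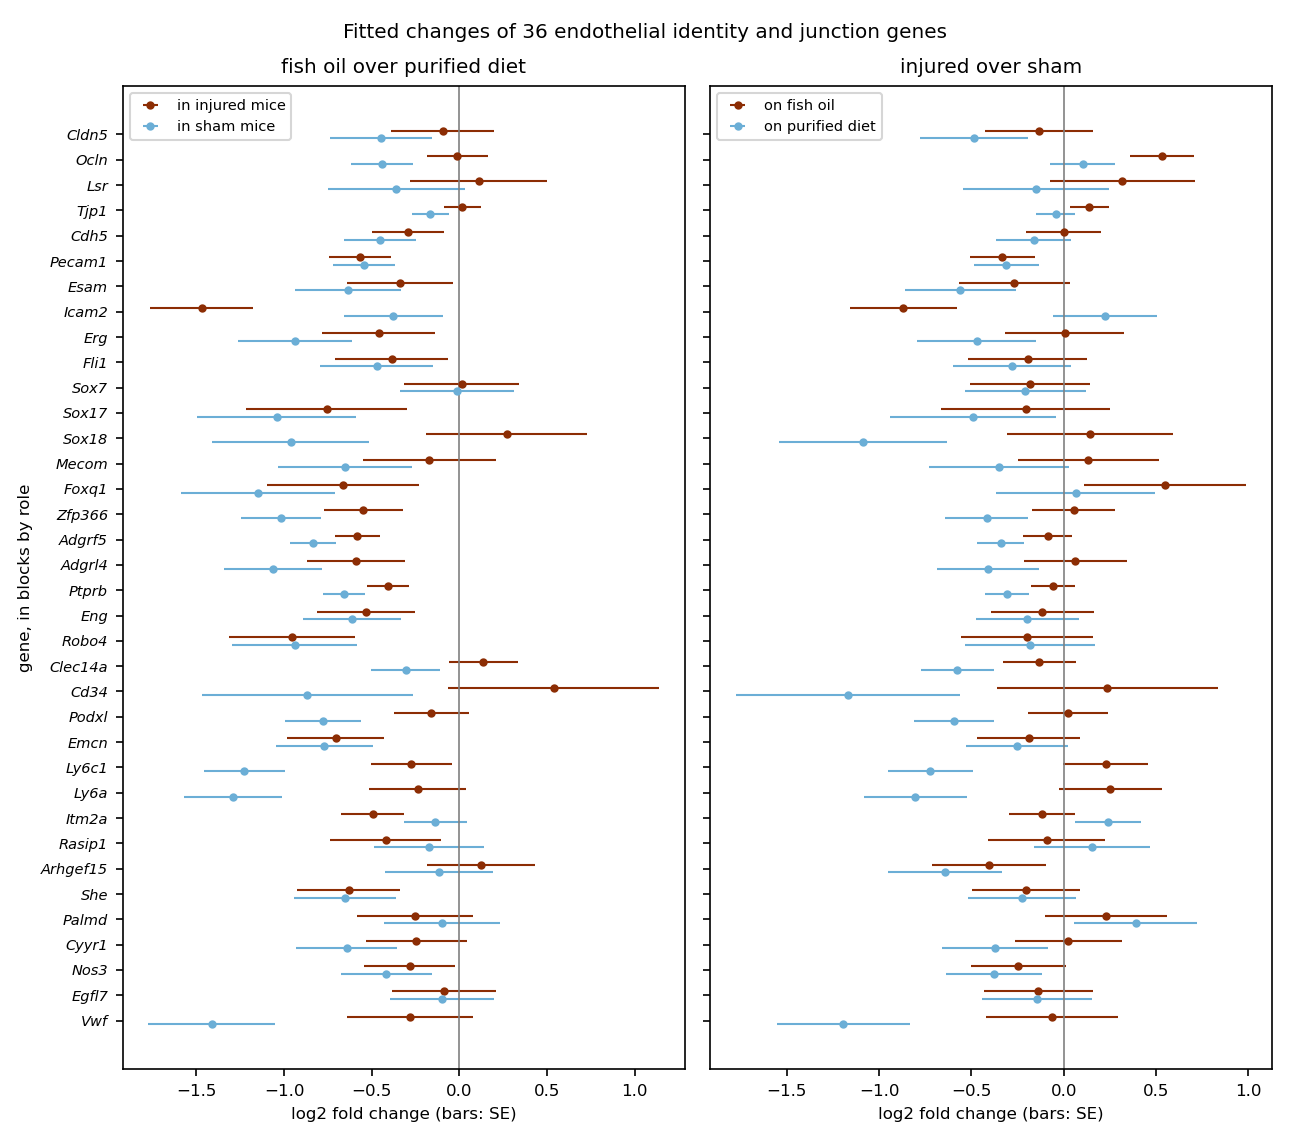
Fitted log2 fold changes (points) with standard errors (bars) of the 36 genes, for fish oil over purified diet in injured and in sham mice (left) and for injured over sham mice on fish oil and on purified diet (right). All 36 sham values for diet lie below 0, and the injury values on fish oil lie on both sides of 0.

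Within the purified diet, most of the list was at lower values in injured than in sham libraries. There were 30 of 36 genes below 0 (49.4% of all genes), and the log2 fold changes had a median of -0.33 and a range of -1.19 to 0.39. At an unadjusted p under 0.05 stood 8 genes, all lower (2.57% of all genes), 6 of them receptors and surface glycoproteins and none a junction gene. Without overlap and lower in injured libraries were 9 genes (6.68% of all genes). The test called 0 genes (0%), and the lowest edgeR adjusted p on the list was 0.763. Vwf, the gene of the clotting protein von Willebrand factor, had 10.03, 6.87 and 10.8 CPM in purified injured libraries and 8.98, 20.8 and 33.4 CPM in purified sham libraries (-1.19 ± 0.36, edgeR adjusted p = 0.763). The groups overlapped, and without purified sham replicate 4 the log2 fold change was -0.68. Ly6c1 had 12.7, 17.4 and 10.1 CPM in purified injured libraries and 17.0, 21.5 and 27.7 CPM in purified sham libraries (-0.72 ± 0.23). Ly6a had 11.1, 12.5 and 11.8 CPM in purified injured libraries and 14.2, 20.6 and 27.0 CPM in purified sham libraries (-0.80 ± 0.28). Clec14a, an endothelial C-type lectin gene, had 3.47, 2.20 and 2.68 CPM in purified injured libraries and 4.17, 4.00 and 4.28 CPM in purified sham libraries (-0.58 ± 0.20). Ly6a and Clec14a were without overlap, and all 3 genes had an edgeR adjusted p of 0.763. Without purified sham replicate 4 the list had 27 genes below 0, a median of -0.21 and 2 genes at an unadjusted p under 0.05. That last count was 5 without purified sham replicate 3 and 5 without purified injured replicate 4, and shares of all genes were not taken for these settings. The comparison shares the purified sham libraries with the diet comparison in sham mice, so the values of both rest in part on the same 3 libraries.

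On fish oil, injured and sham libraries differed little over the list. Of the 36 genes 21 were below 0 (51% of all genes), with a median of -0.08 and a range of -0.87 to 0.55. The 1 gene lower at an unadjusted p under 0.05 was Icam2 (1.9% of all genes), and the 1 gene higher was Ocln (1.58% of all genes). Icam2 had 0.491, 0.421 and 0.539 CPM in fish oil injured libraries and 0.989, 0.845 and 0.823 CPM in fish oil sham libraries (-0.87 ± 0.29). Ocln had 7.16, 9.09 and 10.7 CPM in fish oil injured libraries and 5.13, 6.92 and 6.55 CPM in fish oil sham libraries (0.53 ± 0.18). Both genes were without overlap, as were Clec14a and Nos3, which were lower in injured libraries. Without overlap were thus 3 lower genes (5.23% of all genes) and 1 higher gene (956 of all 19252 genes). Pecam1 was at -0.33 ± 0.18 and Tjp1 at 0.14 ± 0.11, and the edgeR adjusted p was 0.999 for Icam2, Ocln, Pecam1 and Tjp1. The test called 0 genes (0%), and leaving out 1 library in turn gave medians of the list from -0.13 to -0.02.

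Averaged over the diets, 29 of 36 genes were below 0 for injured against sham mice (49.7% of all genes), with a median of -0.21. At an unadjusted p under 0.05 stood 5 lower genes (1.72% of all genes), which are Adgrf5, Arhgef15, Clec14a, Pecam1 and Vwf, and 1 higher gene, Ocln (1.89% of all genes). The log2 fold changes were -0.63 ± 0.25 for Vwf, -0.35 ± 0.14 for Clec14a, -0.32 ± 0.12 for Pecam1 and 0.32 ± 0.12 for Ocln, each with an edgeR adjusted p of 0.991. The test called 0 genes (0%). Without fish oil sham replicate 3, and likewise without purified sham replicate 4, none of the list was lower at an unadjusted p under 0.05. The count was 2 without fish oil injured replicate 2 or 3 and 3 without purified injured replicate 3 or 4. It was 8 without purified sham replicate 2, and shares of all genes were not taken for these settings.

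The interaction asks whether the injury difference on fish oil departed from that on the purified diet, which is also the diet difference in injured mice minus that in sham mice. It was below 0 for 6 of the 36 genes (52.4% of all genes), with a median of 0.27. An unadjusted p under 0.05 was reached by 3 genes above 0 (2.85% of all genes), Ly6c1 at 0.95 ± 0.33, Ly6a at 1.06 ± 0.39 and Vwf at 1.13 ± 0.51. It was also reached by 1 gene below 0 (2.9% of all genes), Icam2 at -1.09 ± 0.40. All 4 had an edgeR adjusted p of 0.820, and the test called 0 genes (0%), so no listed gene was shown to respond to injury in a way that depended on diet. Without purified sham replicate 4 the median was 0.15 and Vwf stood at 0.61.

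Other endothelial genes were examined for diet averaged over injury, beside the same 47.5% of all genes below 0 and 6.1% lower at an unadjusted p under 0.05. Of 10 receptors of endothelial growth factors, 9 were below 0 and 5 were lower at an unadjusted p under 0.05, and their median log2 fold change was -0.34. Among them Flt1, a VEGF receptor gene, was at -0.64 ± 0.11 and Tek, the angiopoietin receptor gene, at -0.66 ± 0.13. Of 16 further endothelial transcripts all were below 0 and 8 were lower at an unadjusted p under 0.05, with a median of -0.34. They include Slco1a4, an organic anion transporter gene of the barrier, at -0.82 ± 0.12, and Slc2a1, the glucose transporter gene, at -0.39 ± 0.07. Of 13 other endothelial transcription factors, 9 were below 0 and 2 were lower at an unadjusted p under 0.05. Markers of arteries were split, with 5 of 10 below 0 and a median of -0.06, and 2 were lower at an unadjusted p under 0.05, Dll4, a Notch ligand gene, at -0.65 ± 0.23 and Sema3g, a semaphorin gene, at -0.47 ± 0.17. Those of veins had 5 of 8 below 0 and a median of -0.08, and 2 were lower at an unadjusted p under 0.05. These were the amino acid transporter gene Slc38a5 at -1.504 ± 0.27 and the lipocalin gene Lcn2 at -3.15 ± 0.77. Slc38a5 is also counted among the 16 further endothelial transcripts. Lcn2 had 3.02 and 3.48 CPM in purified sham replicates 3 and 4 and at most 0.433 CPM in every other library, so its value rests on those libraries. Of 4 markers of fenestrated vessels 2 were below 0. Of 16 junction partners, made by many cell types, 8 were below 0 and the median was 0.01. No gene of these lists had an adjusted p under 0.05.

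Pericytes share the vessel wall with endothelial cells. Of 10 pericyte markers 8 were below 0 for diet averaged over injury, with 2 at an unadjusted p under 0.05 and a median of -0.34. Their summed level was 156 to 181 CPM in fish oil injured libraries, 167 to 210 CPM in fish oil sham libraries, 193 to 221 CPM in purified injured libraries and 216 to 262 CPM in purified sham libraries, with none at 0. The summed level of the 36 genes was 418 to 506 CPM in fish oil injured libraries, 388 to 530 CPM in fish oil sham libraries, 499 to 539 CPM in purified injured libraries and 600 to 720 CPM in purified sham libraries. For diet averaged over injury, most pericyte markers lay in the same direction as the list, and their part in the result was not tested. In sham mice 7 of 10 were below 0, with a median of -0.18, where the list had 36 of 36 and -0.64. In injured mice 9 of 10 were below 0, with a median of -0.28, where the list had 29 of 36 and -0.29. For injury on the purified diet 5 of 10 pericyte markers were below 0, with a median of 0.003, while the list had 30 of 36 below 0. Of 4 vascular smooth muscle markers tested, 3 were below 0 for diet averaged over injury and 3 were above 0 for diet in sham mice. Meningeal fibroblast markers lay the other way for diet averaged over injury, with 8 of 8 above 0 and 0 at an unadjusted p under 0.05. In sham mice 8 of 8 were above 0, and in injured mice 3 of 8. Their summed level was 38.4 to 180 CPM in fish oil injured libraries and 61.2 to 151 CPM in fish oil sham libraries. It was 44.6 to 197 CPM in purified injured libraries and 45.9 to 69.6 CPM in purified sham libraries. Markers of several other cell types were above 0 as well for diet averaged over injury, with 11 of 11 choroid plexus markers (8 at an unadjusted p under 0.05, median 1.70), 6 of 6 astrocyte, 6 of 6 oligodendrocyte and 7 of 7 microglial markers. The choroid plexus markers differed in direction between the injury states. In sham mice 9 of 11 were below 0, with a median of -1.45, and in injured mice 11 of 11 were above 0, with a median of 4.10. None of the astrocyte, oligodendrocyte and microglial markers reached an unadjusted p under 0.05, and their medians were 0.12, 0.41 and 0.14. The part of these markers in the result was not tested, beyond the values given without the libraries richest in choroid plexus transcripts. Some listed genes, such as Pecam1, Cd34 and Ly6a, are also made by blood cells. Markers of lymphocytes and circulating leukocytes were near 0, at 0.231 to 1.62 CPM summed over 9 genes in fish oil injured libraries, 0.873 to 2.32 CPM in fish oil sham libraries, 1.398 to 1.997 CPM in purified injured libraries and 1.01 to 2.60 CPM in purified sham libraries. Between 1 and 6 of the 9 were at 0 in a library. Red blood cell markers summed to 56.7 to 135 CPM in fish oil injured libraries, 73.2 to 94.6 CPM in fish oil sham libraries, 65.2 to 91.2 CPM in purified injured libraries and 40.4 to 172 CPM in purified sham libraries, with none of 5 at 0. The highest value was in purified sham replicate 4, which was also the highest library for 18 of the 36 genes, and the part of blood in the result was not tested.

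**Figure D5:**
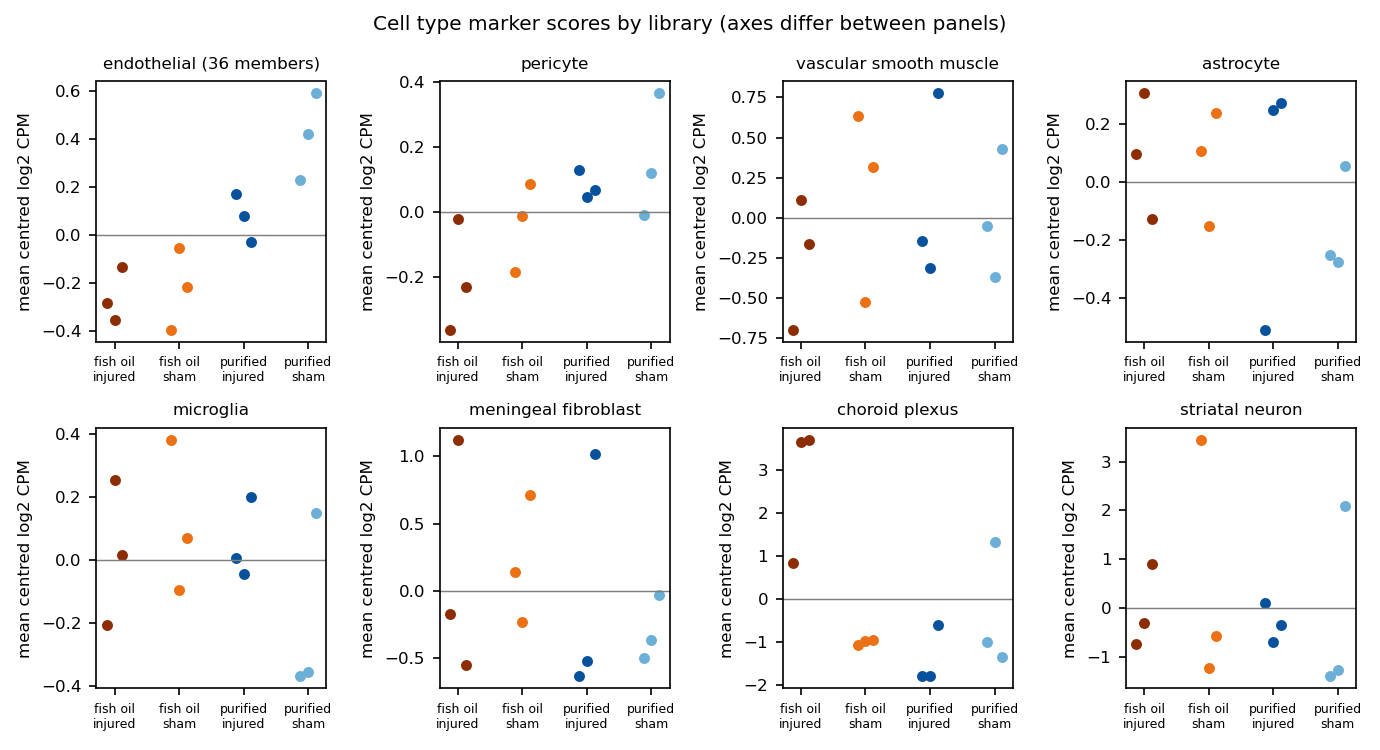
Mean centred log2 CPM of 8 marker lists (panels, with their own axes) in each library, for fish oil injured, fish oil sham, purified injured and purified sham libraries from left to right. The endothelial panel has all 6 fish oil libraries below all 6 purified ones by a narrow margin. In the choroid plexus panel the fish oil injured libraries lie at 0.85, 3.64 and 3.69 and purified sham replicate 3 at 1.32. All other libraries of that panel lie below 0. The striatal panel shows single libraries far from the others.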

How the data were processed

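The authors deposited unnormalised whole-number counts of reads for each gene, made with STAR 2.5.2a and featureCounts 1.4.3-p1 on mm10, per the submitters' processing notes. Libraries were stranded and paired, per the labels' protocols. The sources used here give no annotation release, strand setting or treatment of multi-mapping reads. Values of 2 outnumbered values of 1 (20514 against 11222), so both mates of a pair may have been counted. Symbols and positions came from GENCODE M21 (GRCm38), in which 53274 of 53379 identifiers matched without version and 50604 with it. Cldn5 and Erg matched only without version.

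Genes were kept with filterByExpr (minimum count 10), and edgeR 4.0.16 (glmQLFit and glmQLFTest, robust, TMM factors, R 4.3.3) modelled the 12 libraries together by 4 group means, with 8 residual degrees of freedom. Benjamini-Hochberg adjustment ran over 19252 genes with a threshold of 0.05. The biological coefficient of variation was 0.289. At 46362158 to 70754854 counts per library, counting error matters mainly for the genes with the fewest counts, and replicates differed beyond sampling noise. Standard errors were derived from the F statistic. Log2 CPM used a prior count of 2. Fold changes are given for the 4 listed genes with the smallest p in each comparison and for the 8 junction genes, and other genes by their values. The list and the other gene lists were chosen with earlier results of these data known. The procedure was tested on simulated counts. DESeq2 1.42.0, limma 3.58.1 (voom), other scalings and filters, a replicate block and left-out libraries were alternatives.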

Additional observations from a re-analysis of the deposited data

How the results depend on the processing

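Over 25 alternatives, 12 of which leave out 1 library, the list's median kept its sign in all 7 comparisons. Of the 36 values of named genes, Lsr in sham mice alone turned, to 0.024 on fish oil against purified diet, when both libraries of other regions and purified sham replicate 4 were left out. The same setting gave a median of -0.39 for diet in sham mice. It was chosen after seeing the data, as was leaving out the 3 libraries richest in choroid plexus transcripts. Calls depended on the test. DESeq2 called 186 genes for diet in injured mice, 17 for diet in sham mice, 99 for diet on average, 37 for injury on fish oil, 14 for injury on the purified diet, 3 for injury on average and 21 for the interaction. Of the list it called 2, 5 and 10 genes for diet in injured mice, in sham mice and on average. Limma-voom called 1 gene for injury on fish oil and 2 for injury on average, and as many when replicates 3 and 4 of each group, whose library names open with a common number, were allowed to be correlated, when it also called 2 genes for diet on average, 1 of them listed (Adgrf5). That correlation was estimated at -0.256, below 0. Without a filter on low counts edgeR called 2 genes for diet on average, with Adgrf5 as the 1 listed gene, and 1 gene for injury on average. With both libraries of other regions left out it called 1 gene for diet in injured mice. The causes were not tested. Leaving out 1 library gave 0 to 61 genes for diet in injured mice (61 without purified injured replicate 4), 0 to 7 for diet on average, 0 to 7 for injury on fish oil and 0 to 1 listed gene for diet on average. The list's median ran from -0.73 to -0.50 for diet in sham mice, from -0.39 to -0.28 in injured mice and from -0.57 to -0.40 on average. For Adgrf5 the rank of its p among all genes ran from 1 to 8 for diet in sham mice and from 1 to 5 on average, over the alternatives. Libraries with the same number did not deviate together, with r over 0.1 in 3 of 18 pairs and a median r of -0.02, and 3 libraries correlated best with their own number. With the replicate block the list's median was -0.29 for diet in injured mice, -0.63 in sham mice and -0.47 on average, with 0 listed genes called. Counting error is largest for genes with few counts, such as Sox18 with as few as 12, while Cd34, with 1061 counts or more, varied most between libraries. A minimum count of 50 left 35 of the 36 genes.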
